A study of Mus musculus with 24 samples.

Results

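The 8 chromatin immunoprecipitation (ChIP) libraries described here, of 24 in the series, pair the phosphorylated histone gH2AX with its carrier, the histone H2AX, in wild-type (WT) mouse embryonic fibroblasts (MEFs). They were chosen by antibody and genotype alone, with no measured value: 4 gH2AX libraries (2 female, 2 male) and 4 H2AX libraries (2 female, 2 male), set against 4 WT input libraries and, for 2 comparisons, the matching libraries of SIRT7-KO cells. All cells were primary MEFs of strain C57BL6 that had been irradiated with 5 Gy of X-rays and left to recover for 30 min, and both genotypes were irradiated alike. SIRT7-KO cells lack Sirtuin 7, a NAD-dependent deacetylase. The labels give neither the embryonic stage nor how many embryos went into a culture. Nor do they tell whether a group's 2 libraries are independent cultures, so p-values measure only the spread between these samples, which may be technical.

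H2AX is a variant of the core histone H2A that is scattered through the genome. When a DNA double-strand break is sensed, the kinases ATM, DNA-PKcs and ATR phosphorylate a serine near the end of its tail, and the mark, called gH2AX, spreads over a large domain around the break. The ratio of gH2AX to H2AX therefore compares where reads of the mark and reads of its carrier lie along the genome. The mark and the carrier were pulled down in separate libraries with different antibodies, and background in the pull-downs was not tested. The ratio thus does not measure the share of resident H2AX that carries the mark. The deposited values were raw read counts in bins of 100 kb (genome build mm10), here scaled to 1000000 autosomal reads per library (CPM). Only the distribution along the autosomes can be seen: the libraries carry no stated spike-in, so a change in the total amount of gH2AX would leave these values as they are. No labelled sample was unirradiated, so marks induced by X-rays and marks present before could not be separated. A value averages all cells, so fewer cells with the mark and less mark per cell cannot be told apart. A listed gene is given the bin that holds most of its body, other bins are named for genes that overlap them, and the value of a bin is not specific to any gene in it. Binding profiles give no expression, so the label MEF could not be checked against marker genes.

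The gH2AX libraries held 82.8 to 167 M autosomal reads, the H2AX libraries 102 to 231 M and the WT input libraries 105 to 253 M. A bin held a median of 3068 to 8633 reads in the 8 ChIP libraries, for a counting error of 1.08% to 1.81%. The sex labels fitted the reads, with chromosome X at 5.80% to 5.87% of reads in female and 3.13% to 3.23% in male libraries, and chromosome Y at 0.0937% to 0.100% and 1.57% to 1.61%. The 2 libraries of each group differed by more than counting error (chi-square per degree of freedom 3.12 to 3.51), and the fitted coefficient of variation between libraries was 2.11%.

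gH2AX was distributed differently from H2AX over most of the autosomes, by small amounts. Of 24032 bins tested, 15504 (64.5%) differed in the sexes averaged (edgeR quasi-likelihood test, adjusted p under 0.05), with 7485 (31.1%) higher and 8019 (33.4%) lower in gH2AX than in H2AX. The balance depended on the bins fitted: with bins of usual input alone (0.67 to 1.5 times the median), 8297 were higher and 6895 lower. The distribution was narrow: its 5th and 95th percentiles were -0.23 and 0.20 (log2), and the median called bin differed by 0.13 against a median standard error (SE) of 0.026. All 4 gH2AX libraries lay above all 4 H2AX libraries in 5318 bins (22.1%) and below them in 5794 (24.1%). When a change beyond 1.1-fold was asked for, 3580 bins (14.9%) passed, 1431 higher (5.95%) and 2149 lower (8.94%). A log2 ratio above 0.5 was seen in 16 bins and below -0.5 in 25, and 8 bins exceeded 1 while 0 lay below -1.

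The highest ratios lay in few bins: 8 exceeded 1, and the next were at 0.84 and 0.77. The bin of Rn18s-rs5 (chr17:39800001-39900000), a pseudogene related to 18S ribosomal RNA, had 3697 and 3332 CPM of gH2AX in females and 2163 and 2059 in males, against 264 and 266 CPM of H2AX in females and 221 and 225 in males. Its log2 ratio was 3.49 ± 0.022 (SE), an 11.2-fold excess of gH2AX over H2AX. Input there was 7.43 times that of the median bin, so reads of several copies may gather in it, and how reads with several alignments were handled is not given in the sources used here.

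Next came a bin without an annotated gene (chr3:5800001-5900000), at 205 and 197 CPM of gH2AX in females and 132 and 128 in males, against 42.3, 43.6, 40.3 and 42.3 CPM of H2AX (log2 1.94 ± 0.024). A bin on chromosome 11 that holds a non-coding and a small nuclear RNA gene (chr11:109000001-109100000) followed at 1.91 ± 0.024. In these bins gH2AX was 1.61 and 2.00 above input (log2), while H2AX was at -0.33 and 0.08, so the excess lay in the gH2AX libraries.

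The bin of Cmss1, Filip1l and Tmem30c (chr16:57300001-57400000) reached 1.68 ± 0.023, with 198 and 183 CPM of gH2AX in females and 131 and 125 in males against 47.7 to 49.4 CPM of H2AX. The bins of Zc3h7a, Txndc11 and Rsl1d1 (chr16:11100001-11200000, 1.41), of the Mediator kinase gene Cdk8 and Rnf6 (chr5:146200001-146300000, 1.34) and of the mitochondrial leucyl-tRNA synthetase gene Lars2 with Limd1 (chr9:123400001-123500000, 1.34 in females and 0.86 in males) followed. Cntnap5b (chr1:100100001-100200000) was at 0.84 ± 0.025 and the bin of Hic2, Tmem191c and Pi4ka (chr16:17200001-17300000) at 0.77 ± 0.023. In all of these the female gH2AX libraries lay above the male. That every gH2AX library lay above every H2AX library was a condition for picking the bins, not a result.

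The bin of Lmbrd1 (chr1:24600001-24700000) reached a ratio of 1.53 ± 0.023 in another way. It had 106, 98.2, 120 and 119 CPM of gH2AX and 39.1, 38.9, 37.9 and 37.4 CPM of H2AX, but 366 to 424 CPM in input. Both marks were thus depleted relative to input, gH2AX by -1.85 and H2AX by -3.38 (log2), and the male gH2AX libraries lay above the female ones. After each library was corrected for its trend across bins on H2AX over input in SIRT7-KO cells (a correction called removal of the trend on H2AX hereafter), the ratio of this bin was -0.36.

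Among bins whose input lay near the median (0.67 to 1.5 times), which were 98.1% of those tested, the bin of Fsip1 and Thbs1 (chr2:118100001-118200000) and that of Gphn (chr12:78300001-78400000) completed the highest 10. Thbs1 encodes thrombospondin 1, a secreted matrix glycoprotein of fibroblasts. Its bin had 62.5, 60.6, 56.4 and 57.8 CPM of gH2AX against 36.7, 36.6, 37.7 and 38.7 CPM of H2AX, a log2 ratio of 0.66 ± 0.024 (adjusted p = 1.05e-130). The Gphn bin, named for the synaptic scaffold protein gephyrin, was at 0.62 ± 0.024.

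**Figure D1:**
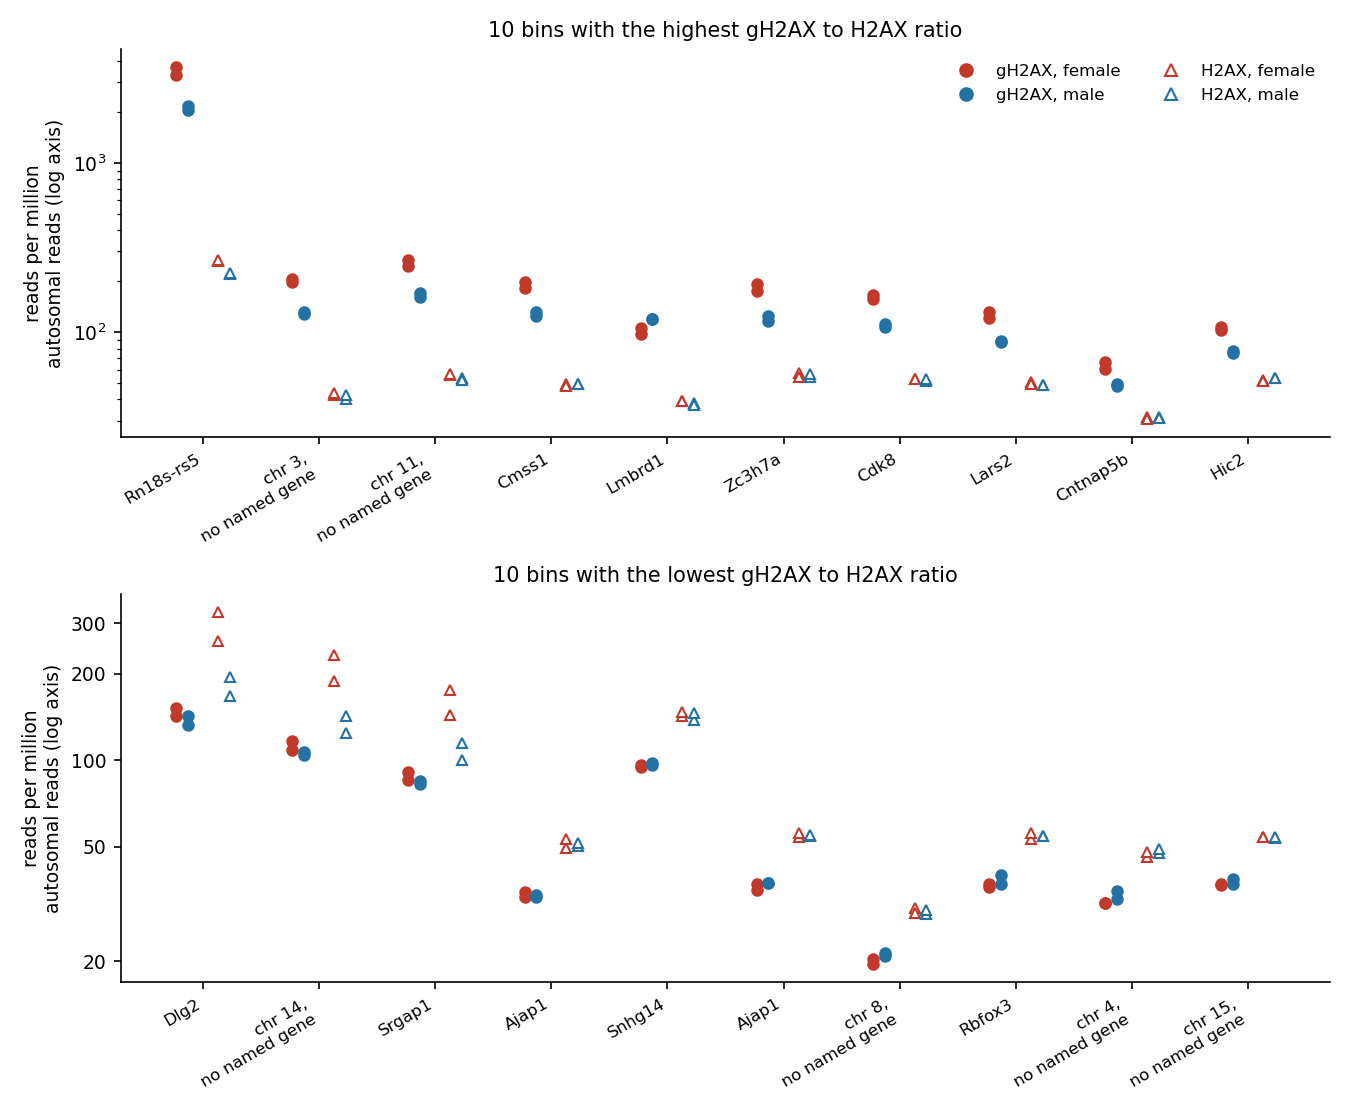
CPM (log axis) in each WT library for the 10 bins with the highest (top) and the 10 with the lowest (bottom) gH2AX to H2AX ratio, filled circles for gH2AX and open triangles for H2AX, red for female and blue for male. The bins were picked so that gH2AX and H2AX libraries do not overlap. In the top panel gH2AX reaches 3697 CPM at Rn18s-rs5, and in the bottom panel the bins of Dlg2, chromosome 14 and Srgap1 show H2AX higher in females than in males.

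The lowest ratios were smaller in size and fell into 2 kinds. In the bin of Dlg2, Sytl2 and Tmem126b (chr7:90400001-90500000) gH2AX was at 143, 152, 133 and 143 CPM, while H2AX was at 260 and 329 CPM in females and 168 and 195 in males, a log2 ratio of -0.70 ± 0.023 (adjusted p = 3.33e-155). The bin of Srgap1 and BC048403 (chr10:121700001-121800000, -0.61 ± 0.023) and one without a protein-coding gene (chr14:45800001-45900000, -0.62 ± 0.023) had the same form. In these 3 bins gH2AX itself was enriched over input (log2 0.65 to 0.83), but H2AX was enriched more (1.26 to 1.53), and H2AX was higher in the female than in the male libraries. Input was itself 2.17, 1.81 and 1.48 times the median in the bins of Dlg2, chromosome 14 and Srgap1. It too was higher in females, at 87.9 ± 0.75 CPM against 73.4 ± 5.89 CPM in males for Dlg2, 71.6 ± 1.30 against 62.7 ± 4.82 for chromosome 14 and 57.8 ± 1.19 against 51.9 ± 2.07 for Srgap1 (SD, n = 2 each). The part of input in these ratios was not tested.

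In the other 7 lowest bins no sex difference passed, with a female minus male difference of -0.09 to 0.01 (log2, adjusted p 0.351 to 0.883). The gene Ajap1, which encodes an adherens junction-associated membrane protein, filled 2 of them. Its first bin (chr4:153300001-153400000) had 35.0, 33.5, 33.4 and 34.0 CPM of gH2AX against 49.6, 53.2, 50.5 and 51.6 CPM of H2AX (log2 -0.60 ± 0.025, adjusted p = 1.08e-102), and its second was at -0.58 ± 0.025. A bin 0.4 Mb before the first, with no annotated gene (chr4:152900001-153000000), was also among the lowest (-0.53). A bin of the imprinted Snhg14 transcript on chromosome 7, which holds 40 small nucleolar RNA genes (chr7:59700001-59800000), was at -0.58 ± 0.023, with input 2.17 times the median. Its neighbour, with 20 such genes, was not one of the 7 but was among the lowest at usual input (-0.53 ± 0.026). The bin of the neuronal splicing factor gene Rbfox3 (chr11:118600001-118700000, -0.54) was one of the 7. The rest of the 7 were the bins of Gm51571 and Gm51572 and of the non-coding gene Gm19859. Among the lowest at usual input, but not of the 7, were the bins of Igsf21 (chr4:140200001-140300000, -0.53) and Phactr3 (chr2:178200001-178300000, -0.52). That all 4 gH2AX libraries lay under all 4 H2AX libraries was a condition for picking these bins, not a result.

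Ratios of neighbouring bins resembled each other, although most stretches of called bins were short. The ratios of bins 0.1 Mb apart had r = 0.65 over 24003 pairs, those 1 Mb apart r = 0.32 and those 10 Mb apart r = 0.12, a description in which neighbouring bins share library and base composition. The 7485 higher bins formed 2728 stretches with a median of 1 bin, of which 121 held 10 or more bins (2070 bins in all). The 8019 lower bins formed 2723 with a median of 2 bins, of which 122 did (1817 bins).

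The longest higher stretch covered 55 bins around the ephrin receptor gene Epha7 and the kinase gene Map3k7 (chr4:26500001-32000000), with a mean log2 ratio of 0.23. Built from called bins, the stretch had 50 whose libraries did not overlap, against 5213 of all 7485 bins called higher. It held the midpoints of only 2 protein-coding genes. Next came 50 bins around the adhesion receptor gene Adgrl3 (chr5:78500001-83500000, mean 0.18), 45 around the cell adhesion gene Cadm2 (chr16:65300001-69800000, 0.15), 42 around Flrt2 (chr12:93400001-97600000, 0.19), 40 around the ephrin gene Efna5 (chr17:59000001-63000000, 0.21) and 38 around Pcdh9 (chr14:90700001-94500000, 0.18). The prolactin family cluster on chromosome 13 (chr13:25500001-29000000, 35 bins) had a mean of 0.25, and a stretch with Arhgap15, Gtdc1 and Zeb2 on chromosome 2 (chr2:43900001-47000000, 31 bins) had 0.22. In all 8 of these both profiles lay below input on average, H2AX by more (log2 -0.38 to -0.32) than gH2AX (-0.24 to -0.07).

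The longest lower stretch was the first 4.7 Mb of sequence on chromosome 14 (chr14:3000001-7700000, 47 bins, mean -0.22), where input was 2.04 times the median. At usual input, 35 bins on chromosome 12 (chr12:17600001-21100000) had a mean of -0.34, 35 bins around the membrane protein genes Tmem132d, Tmem132c and Tmem132b (chr5:125500001-129000000) had -0.30, and 35 bins around Cdh4 and Phactr3 (chr2:176400001-179900000) had -0.30. The last 2 had 34 and 31 bins that also passed the 1.1-fold test. Over all tested bins, 8019 were called lower and 2149 were lower beyond 1.1-fold. In each of these lower stretches both profiles lay above input on average, H2AX by more (log2 0.23 to 0.44) than gH2AX (0.01 to 0.10). Shorter ones were chr5:143000001-146200000 (mean -0.18), chr12:21500001-24600000 (-0.31), chr12:113200001-116200000 (-0.18) and chr7:13100001-16000000 (-0.16). In the last 2 of these, gH2AX lay below input on average (-0.12 and -0.01) and H2AX above it (0.07 and 0.15).

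The ratio was lower where H2AX over input was higher. To keep the ordering free of the libraries under test, bins were ranked by H2AX over input in SIRT7-KO cells, which share no library with the WT ratio. The profile itself was shared. Median H2AX over input was -0.36 in both KO and WT in the lowest decile, and 0.48 in both in the highest. As H2AX is the denominator of the ratio, a gH2AX profile flatter than that of H2AX gives such a fall by itself. In the lowest decile of that ranking the median ratio was 0.16 and 92.3% of bins were called higher; in the highest decile it was -0.15 and 82.3% were called lower. Across 24032 bins the ratio and H2AX over input in KO had r = -0.70 (rho = -0.71), at r = -0.50 for females and r = -0.83 for males, where the points share base composition and mappability. Relative to WT input, which enters both values, the SD across bins was 0.19 for gH2AX and 0.26 for H2AX (log2). The gH2AX profile was thus the flatter of the pair and closer to input. Whether more background in the gH2AX libraries made it so was not tested. gH2AX differed from input in 19510 bins (81.2%; 39% of bins higher, 42.2% lower) and H2AX in 20667 (86%; 44.1% higher, 41.9% lower).

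Bins with many gene midpoints and bins with none differed in ratio at similar H2AX, in an order that changed along the deciles of H2AX. Over all bins the median ratio was -0.04 in the 666 bins with 5 or more midpoints of protein-coding genes and 0.03 in the 13358 bins with none, and these signs turned round when each library was corrected for its trend on H2AX (0.07 and -0.02). Within the highest decile of H2AX, the 287 bins with 5 or more midpoints had a median of -0.06, against -0.29 in the 557 bins with none. In that decile 77.4% of the gene-free bins were lower beyond 1.1-fold, against 7.67% of the gene-dense bins. In the ninth decile the medians were -0.01 (151 bins) and -0.17 (663 bins). Deciles 2 to 6 had the other order, with 25 to 30 gene-dense bins each. In the third decile the medians were -0.02 (27 bins) and 0.04 (1877 bins), and in the sixth -0.07 (25 bins) and -0.04 (1185 bins).

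**Figure D2:**
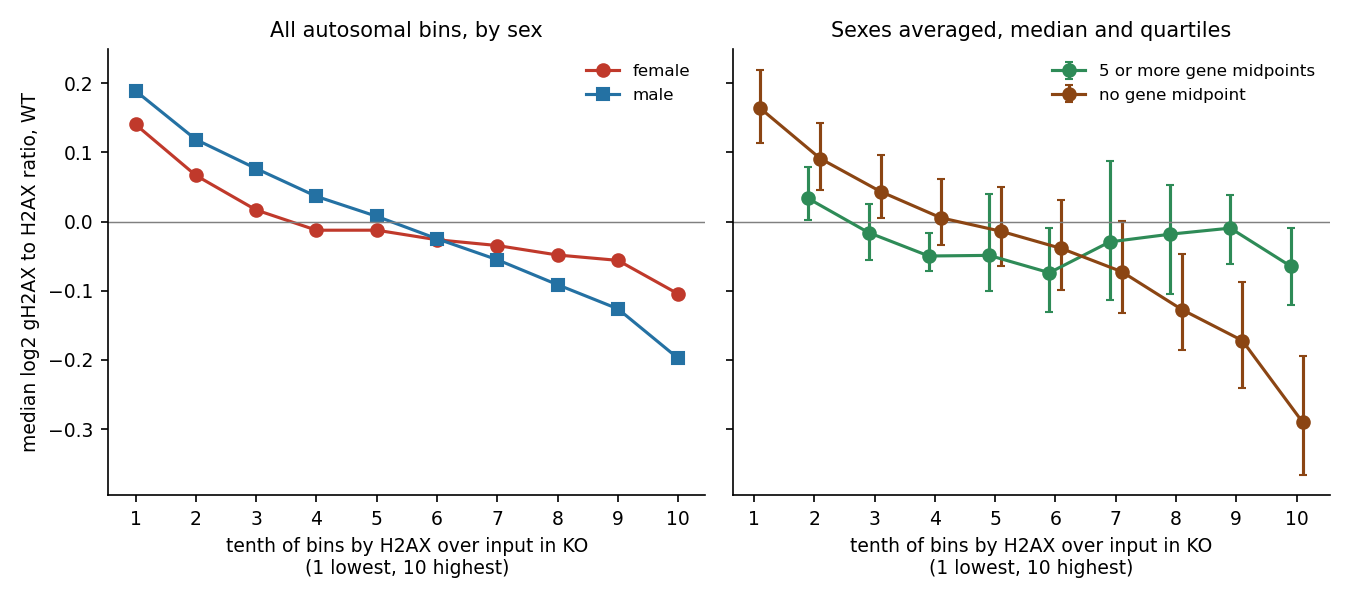
Median log2 gH2AX to H2AX ratio of WT bins in deciles ranked by H2AX over input in SIRT7-KO cells, on the left for females and males and on the right for bins with 5 or more gene midpoints (green) and with none (brown), where bars span the quartiles of the bins. The male medians run from 0.19 in the lowest decile to -0.20 in the highest, a wider span than the female 0.14 to -0.10, and in the highest decile gene-free bins lie at -0.29 and gene-dense bins at -0.06.

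Gene groups were then compared with all tested bins, of which 31.1% were called higher and 33.4% lower. The replication-dependent histone genes, which supply the core histones for newly copied DNA, sit in a few clusters: 62 genes filled only 8 bins. Of these, 7 were higher, 0 were lower, and the median log2 ratio was 0.22. The bin of H4c8, H2ac10 and H3c8 (chr13:23500001-23600000) had 38.3, 38.4, 39.6 and 39.0 CPM of gH2AX against 29.3, 30.9, 31.4 and 31.2 CPM of H2AX, a log2 ratio of 0.34 ± 0.027 (adjusted p = 1.3e-31). The bin of H2bc23 and H2ac23 (chr13:21800001-21900000) had 43.5, 39.9, 40.3 and 38.4 CPM against 32.0, 32.2, 32.5 and 33.5 CPM, at 0.31 ± 0.027. No gH2AX library overlapped an H2AX library in either bin, nor in the other 5 called, as in 5213 of all 7485 bins called higher. The smaller cluster on chromosome 3 (chr3:96200001-96300000) was at 0.14 ± 0.025, and the bin of H2bc1 and H2ac1, testis-specific histone genes at the edge of the chromosome 13 cluster, did not pass (0.02 ± 0.027, adjusted p = 0.426). The median stayed at 0.17 after the trend on H2AX was removed.

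A neighbouring bin was high as well. The bin of the zinc finger gene Zfp184 (chr13:21900001-22000000) had the highest ratio of all 287 bins of its list, 0.41 ± 0.027, and the olfactory receptor gene Olfr1359 and the vomeronasal receptor gene Vmn1r188 each led their lists at 0.25 and 0.20, in bins that they share with histone genes and that were counted above.

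Fibroblast genes also stood high. Of 16 bins, 11 were higher and 2 lower, with a median of 0.12 (0.09 after removal of the trend). The bin of Fn1 (chr1:71600001-71700000), which encodes the matrix protein fibronectin, averaged 47.8 ± 2.02 CPM of gH2AX and 40.3 ± 1.90 CPM of H2AX (SD, n = 4 each), a log2 ratio of 0.25 ± 0.025 (adjusted p = 1.88e-21). The bin of the intermediate filament gene Vim was at 0.25 ± 0.027, that of decorin (Dcn) at 0.19 and those of the collagen genes Col1a2, Col3a1 and Col1a1 at 0.14, 0.12 and 0.11. Col5a1, another fibrillar collagen gene, was lower at -0.26 ± 0.024, as was the fibrillin gene Fbn1 at -0.14 ± 0.025. In Col5a1 the H2AX libraries were 0.70 above input, in Fn1 0.01.

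The immediate early genes, which are switched on within minutes of a stimulus, had 9 of 20 bins higher and 3 lower. The Klf6 bin (chr13:5800001-5900000) was at 0.34 ± 0.028, with 38.7 ± 0.91 CPM of gH2AX against 30.6 ± 1.14 CPM of H2AX, Jun was at 0.21 ± 0.026, Klf4 at 0.17, Myc at 0.16 and Fos at 0.11. Zfp36 (-0.15 ± 0.024) and Klf2 (-0.12 ± 0.024) were lower, and both changed sign after the trend on H2AX was removed (0.01 and 0.08).

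The p53 targets, which X-rays are known to induce, had 8 of 25 bins higher and 3 lower with a median of -0.003. The death receptor gene Fas was at 0.23 ± 0.027 and cyclin G1 (Ccng1) at 0.15 ± 0.027, while Ddb2 was at -0.11 ± 0.024, Zmat3 at -0.08 ± 0.025 and Mdm2, the ubiquitin ligase of p53, at -0.06 ± 0.025. The bin of Cdkn1a, the cell cycle inhibitor p21, was at 0.05 ± 0.025 (adjusted p = 0.048).

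Genes of the break response were counted in 3 lists, against 31.1% higher and 33.4% lower of all bins. Among break sensing and signalling genes, 3 of 23 bins were higher and 7 lower, with a median of -0.03 that became 0.05 after the trend was removed. Bard1, partner of BRCA1, was at 0.13 ± 0.026 and the gH2AX reader Mdc1 at 0.09 ± 0.024. The acetyltransferase gene Kat5 was at -0.21 ± 0.024, Uimc1 at -0.19 ± 0.025, the ubiquitin ligase gene Rnf8 at -0.18 ± 0.024 and Rad50 at -0.14 ± 0.024. The bin of H2ax itself did not pass (-0.01 ± 0.024, adjusted p = 0.728), nor did that of the kinase gene Atm (-0.04 ± 0.026, adjusted p = 0.138). End joining genes had 4 of 17 higher and 6 lower, led by the DNA end-processing gene Aptx at 0.13 and the polymerase gene Poll at -0.20. Homologous recombination genes had 8 of 25 higher and 5 lower, from Rad51b at 0.16 to Rad52 at -0.19. Their medians of -0.03 and -0.03 became 0.02 and 0.06 after the trend was removed.

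Among kinases and phosphatases that act on H2AX, 1 of 13 bins was higher, the tyrosine phosphatase gene Eya1 at 0.08, and 5 were lower, down to Eya2 at -0.19. Of 7 sirtuin bins 2 were higher, Sirt5 at 0.13 and Sirt4 at 0.08, and that of Sirt7 was lower at -0.10, which changed sign after the trend was removed (0.07).

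Housekeeping genes had 7 of 15 bins higher, with B2m at 0.15, and 2 lower, Eef2 at -0.20 and Gapdh at -0.17. Cytosolic ribosomal protein genes had 22 of 78 higher and 28 lower, with Rps20 at 0.20 and Rps15a at -0.22, and their median of -0.01 became 0.09 after the trend was removed. Genes of the nucleolus and ribosomal RNA synthesis had 2 of 17 higher and 7 lower, the lowest being Polr1c at -0.22 and the rRNA methyltransferase gene Fbl at -0.21, and their median of -0.05 likewise became 0.06.

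Several tandem gene families had more lower than higher bins, unlike the histone clusters and the prolactin cluster described above. The clustered protocadherins, adhesion molecules of neurons, filled 8 bins on chromosome 18, of which 0 were higher and 6 lower, with a median of -0.17. The bin of Pcdhb3 (chr18:37300001-37400000) was at -0.29 ± 0.029, with 28.1 ± 1.49 CPM of gH2AX against 34.2 ± 1.05 CPM of H2AX, and that of Pcdhb9 at -0.28 ± 0.027. The keratin clusters of the epidermis had 2 of 14 bins higher and 8 lower. The bin of Krt5 (chr15:101700001-101800000) was at -0.38 ± 0.025, with 37.4 ± 0.79 CPM against 48.7 ± 1.39 CPM, whereas that of Krt8, shared with Krt18, was at 0.06 ± 0.025 (adjusted p = 0.0274).

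Vomeronasal receptor genes had 3 of 202 bins higher and 135 lower at a median of -0.09, and olfactory receptor genes 24 of 338 higher and 187 lower at -0.07. Few of these passed the 1.1-fold test, 7 of 202 lower and 1 higher in the vomeronasal list, and 25 of 338 lower and 4 higher in the olfactory list. Both lower shares were smaller than the 8.94% of all tested bins that were lower beyond 1.1-fold. The excess of lower bins in these 2 lists was thus one of small differences. Removal of the trend left the medians of the protocadherins (-0.14), vomeronasal (-0.10) and olfactory receptors (-0.08) below 0, brought the keratins to -0.04 and turned the zinc finger genes (43 of 287 higher, 158 lower, median -0.06) to 0.01.

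Imprinted genes had 4 of 23 bins higher and 11 lower, with Sgce at 0.14 and Dlk1 at 0.09, and Phlda2 at -0.25 and Meg3 at -0.22. The Hox clusters had 1 of 9 higher and 4 lower, with Hoxb9 at -0.12. Very long genes at common fragile sites were split, 9 of 25 higher and 9 lower, with Fhit at 0.19 and Nrxn3 at -0.21. Markers of other cell types showed no common direction: epithelial genes had 4 of 7 higher and 2 lower, haematopoietic genes 3 of 8 and 4, neuronal genes 3 of 8 and 3, endothelial genes 1 of 5 and 2, and muscle genes 1 of 6 and 3. Within them Syt1 was at 0.27 and Ptprc at 0.21, against Rbfox3 at -0.45 and Myod1 at -0.26.

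**Figure D3:**
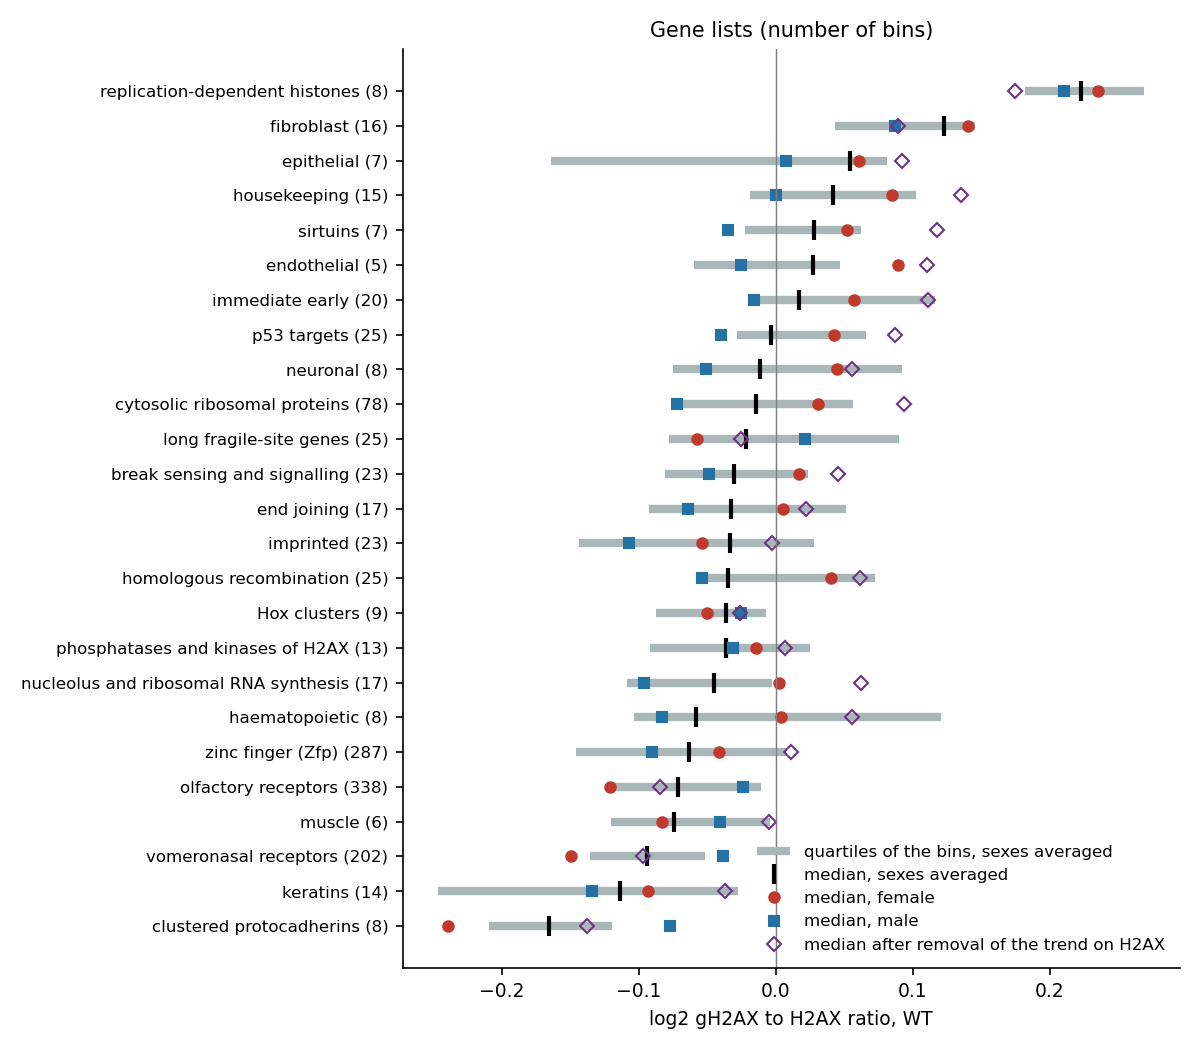
Log2 gH2AX to H2AX ratio in WT for 25 gene lists, each a row with its number of bins: the black tick is the median and the grey bar the quartiles for the sexes averaged, the red circle and blue square the female and male medians, and the open diamond the median after the trend on H2AX was removed. The histone list (0.22) and the fibroblast list (0.12) lie highest and the protocadherins (-0.17) lowest, and many lists near 0 move to the right of 0 once the trend is removed.

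Promoters of the leading genes in these groups are printed to show how unlike their sequences were, since the bins were chosen for the ratio and not for sequence. Each run gives the 250 bases before the annotated start, 5′ to 3′ on the gene's strand (RefSeq, GRCm38.p6). Capitals mark CCAAT and TATAA on either strand, where the reverse complements are ATTGG and TTATA.
H4c8 (chr13:23530794-23531043, + strand): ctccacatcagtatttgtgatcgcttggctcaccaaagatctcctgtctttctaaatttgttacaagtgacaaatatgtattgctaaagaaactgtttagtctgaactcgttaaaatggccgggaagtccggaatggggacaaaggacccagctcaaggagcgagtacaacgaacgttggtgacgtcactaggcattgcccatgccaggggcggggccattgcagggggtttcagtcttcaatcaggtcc
H2bc23 (chr13:21810200-21810449, - strand): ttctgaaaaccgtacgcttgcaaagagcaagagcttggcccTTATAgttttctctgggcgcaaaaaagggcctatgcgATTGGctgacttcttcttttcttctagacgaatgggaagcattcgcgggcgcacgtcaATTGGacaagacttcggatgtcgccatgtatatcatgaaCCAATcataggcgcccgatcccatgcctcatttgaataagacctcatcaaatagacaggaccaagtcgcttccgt
Klf6 (chr13:5861239-5861488, + strand): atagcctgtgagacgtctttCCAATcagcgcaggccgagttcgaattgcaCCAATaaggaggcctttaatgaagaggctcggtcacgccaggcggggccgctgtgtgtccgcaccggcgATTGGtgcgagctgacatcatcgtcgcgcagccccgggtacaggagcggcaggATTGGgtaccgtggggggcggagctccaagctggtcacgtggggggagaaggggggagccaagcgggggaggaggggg
Krt5 (chr15:101712906-101713155, - strand): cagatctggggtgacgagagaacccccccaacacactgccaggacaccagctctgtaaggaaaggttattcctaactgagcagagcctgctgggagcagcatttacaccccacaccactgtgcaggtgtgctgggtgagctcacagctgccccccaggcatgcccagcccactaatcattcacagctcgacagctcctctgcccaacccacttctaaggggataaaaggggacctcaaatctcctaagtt
Ajap1 (chr4:153482831-153483080, - strand): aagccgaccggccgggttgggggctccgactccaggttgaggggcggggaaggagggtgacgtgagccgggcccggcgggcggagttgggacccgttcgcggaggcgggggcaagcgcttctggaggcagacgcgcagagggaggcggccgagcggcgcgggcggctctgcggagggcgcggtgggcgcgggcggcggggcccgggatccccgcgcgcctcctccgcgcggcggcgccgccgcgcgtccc

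The GC content of these windows was 48.4% (H4c8), 48.0% (H2bc23) and 64.8% (Klf6) in bins of high ratio, and 56.0% (Krt5) and 81.2% (Ajap1) in bins of low ratio. CG dinucleotides numbered 9, 15 and 21 against 2 and 43. CCAAT was found on either strand in 48 of the 58 histone promoters with an entry (of 62 genes) and in 33.8% of all 32851 promoter windows. TATAA was found in 36 of the 58 and in 22.8% of all. In quintiles of bins by ratio, from lowest to highest, the median promoter GC content was 51.3%, 53.6%, 54.5%, 54.0% and 50.0%, so both ends of the distribution held promoters of lower GC than the middle.

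Before the trend on H2AX was removed, females and males shared most of the pattern. The test called 12778 bins (53.2%) in females and 13132 (54.6%) in males. Of these 8540 were called in both, which is 66.8% of the female and 65.0% of the male calls, and 8350 had the same direction. Across 24032 bins the female and male ratios, which come from different libraries, had r = 0.79 and rho = 0.74. With the trend on H2AX removed, 11860 bins were called in females, 9096 of them called in the same direction before. In males 4368 were called, 2774 of them called in the same direction before.

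The difference between the sexes was tested directly and passed in 2868 bins (11.9%), with 1720 (7.16%) higher in females and 1148 (4.78%) lower in females than in males. The called differences had a median size of 0.17 (log2). Bins richer in H2AX were more often higher in females. In the highest decile of H2AX over input in KO, 635 of 2404 bins were higher in females and 26 lower. In the lowest decile these counts were 11 and 111 of 2404. Among bins with 5 or more gene midpoints 213 were higher in females and 24 lower, and their median ratio was 0.005 in females and -0.07 in males. Such bins in deciles 2 to 6 of H2AX went the other way, with median female minus male differences of -0.08 to -0.05 (25 to 30 bins each). With bins of usual input alone, 1412 bins were higher and 1284 lower in females. After the trend was removed from each library, 1545 bins were called, 701 higher and 844 lower in females. The count without a library was 1421 without the first female and 992 without the second male gH2AX library, 1770 without the second female H2AX library, and 865 and 1476 without the first and the second male H2AX library.

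**Figure D4:**
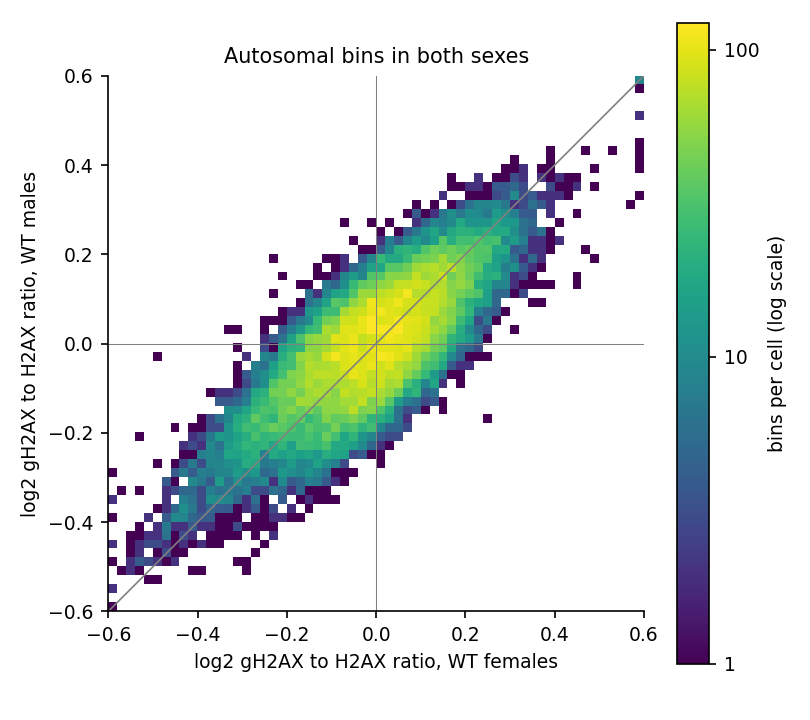
Log2 gH2AX to H2AX ratio of each autosomal bin in WT females (x) and WT males (y), coloured by the number of bins in each cell of the grid, with values beyond ±0.6 drawn at the edge. The cloud follows the diagonal (r = 0.79), and the ratios spread over a similar range in both sexes (SD across bins 0.15 in females and 0.14 in males).

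The largest sex differences were mostly found in bins already described. Those with the highest female minus male difference were the bins of Zc3h7a (0.60 ± 0.046 SE, female 1.71 and male 1.11), Cmss1 (0.59 ± 0.046), chr3:5800001-5900000 (0.57 ± 0.046), Cdk8 (0.55 ± 0.046) and chr11:109000001-109100000 (0.53 ± 0.046), where the gH2AX libraries differed between the sexes and the H2AX libraries were alike. The lowest were the bins of Dlg2 and Sytl2 (-0.60 ± 0.046, male -0.40), chr14:45800001-45900000 (-0.55 ± 0.046) and Srgap1 (-0.50 ± 0.046), where H2AX differed more between the sexes than gH2AX did. In these 3 bins the H2AX libraries of one sex also lay apart (260 and 329 CPM in females for Dlg2), and input was higher in females. The bin of Hsd17b11, Sparcl1 and Nudt9 (chr5:104000001-104100000) followed at -0.37 ± 0.046, with 83.5 and 86.9 CPM of gH2AX in females and 77.7 and 78.2 in males against 122 and 147 CPM of H2AX in females and 90.6 and 100 in males.

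The bin of the netrin receptor gene Dcc (chr18:71400001-71500000) was at -0.35 ± 0.053, with 33.3 and 34.8 CPM of gH2AX in females and 36.1 and 36.5 in males, against 40.6 and 44.8 CPM of H2AX in females and 35.8 and 35.7 in males. Here the female libraries showed less gH2AX than H2AX and the male libraries were close to equal (log2 -0.33 in females and 0.02 in males).

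Gene groups were set against all tested bins, of which 7.16% were higher and 4.78% lower in females. The ribosomal protein genes had 26 of 78 bins higher and 0 lower in females, with medians of 0.03 in females and -0.07 in males. The homologous recombination and p53 target lists each had 7 of 25 higher and 0 lower. The receptor families went the other way. Olfactory receptor genes had 3 of 338 bins higher and 53 lower in females (medians -0.12 and -0.02), vomeronasal receptor genes 0 and 37 of 202 (-0.15 and -0.04), and the protocadherins 0 and 5 of 8 (-0.24 and -0.08). In the histone list 0 of 8 bins passed in either direction, and the medians were 0.24 in females and 0.21 in males. Over all bins the sex difference rose with H2AX over input in KO (r = 0.41). The median of that value was 0.30 in the ribosomal protein, 0.26 in the homologous recombination and 0.18 in the p53 list. It was -0.06 in the olfactory, -0.02 in the vomeronasal and 0.07 in the protocadherin list. Sex differences of the lists after removal of the trend were not tested.

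Averaged over the sexes, few bins were called different in ratio from SIRT7-KO cells, and a bin that did not pass is not shown to be equal. KO differences within a sex were not tested, and those of opposite sign in females and males would cancel in the average. KO minus WT, both sexes averaged, passed in 43 of 24033 bins (0.179%), 26 higher (0.108%) and 17 lower (0.0707%) in KO, and 3558 bins had an unadjusted p under 0.05. The bin of Rn18s-rs5 had a log2 ratio of 3.78 in KO and 3.49 in WT, a difference of 0.29 ± 0.030 (adjusted p = 5.31e-15). The bins of the cholesterol exporter gene Abca1 (0.18 ± 0.035), Hmgcll1 (0.17), Trappc9 (0.17) and the chromatin remodeller gene Arid1b (0.16) were also higher in KO. Lower in KO were the bins of Olfr78 (-0.20 ± 0.039), Lmbrd1 (-0.20 ± 0.033), Ndst4 (-0.19) and bins on chromosomes 9 and 16 (both -0.18). The count rests on single libraries. Without a KO library it was 17 and 20 (female H2AX 1 and 2), 467 (male H2AX 1), 19 and 75 (female gH2AX 1 and 2) and 13 (male gH2AX 1). Without a WT library it was 11 and 25 (male H2AX 1 and 2), 107 and 23 (female gH2AX 1 and 2), and 80 and 3 (male gH2AX 1 and 2).

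Values were also summed within a library, with the library as the replicate. The log2 ratio of reads in the 666 gene-dense bins to reads in the 13358 gene-free bins was -4.20 and -4.22 in female and -4.30 and -4.32 in male gH2AX libraries, against -4.20 and -4.19 in female and -4.18 and -4.18 in male H2AX libraries, and -4.63 ± 0.01 in input (SD, n = 4). The means of -4.26 ± 0.06 for gH2AX and -4.19 ± 0.009 for H2AX (SD, n = 4 each) differed by -0.07 (exact permutation test, two-sided, p = 0.0286, the smallest that 4 against 4 libraries allow; adjusted over 2 tests 0.0286). The male gH2AX libraries lay farthest from H2AX and the female ones near it. The test did not pass without any 1 of the H2AX libraries (exact permutation p = 0.0857 to 0.143), nor in bins of usual input (-0.05, exact permutation p = 0.143).

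High-copy bins, those 46 with input above 3 times the median, took 9.26% and 9.27% of the reads in female and 9.58% and 9.77% in male gH2AX libraries, against 8.62%, 8.37%, 8.60% and 8.60% in the H2AX libraries and 11.2% to 11.5% in input. The gH2AX share was 0.15 higher (log2; exact permutation test, two-sided, p = 0.0286, adjusted 0.0286). A single bin on chromosome 2 (chr2:98600001-98700000) made up 5.09% to 5.46% of the gH2AX and 4.69% to 4.86% of the H2AX reads, with a log2 ratio of 0.13 ± 0.014 (adjusted p = 8.91e-18). The Rn18s-rs5 bin, also one of the 46, averaged 2813 CPM of gH2AX and 244 CPM of H2AX. Of the 46 bins, 9 were called higher and 35 lower, against 31.1% and 33.4% of all tested bins. The median ratio over the 46 bins was -0.21, so the sum and the median pointed in opposite directions.

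**Figure D5:**
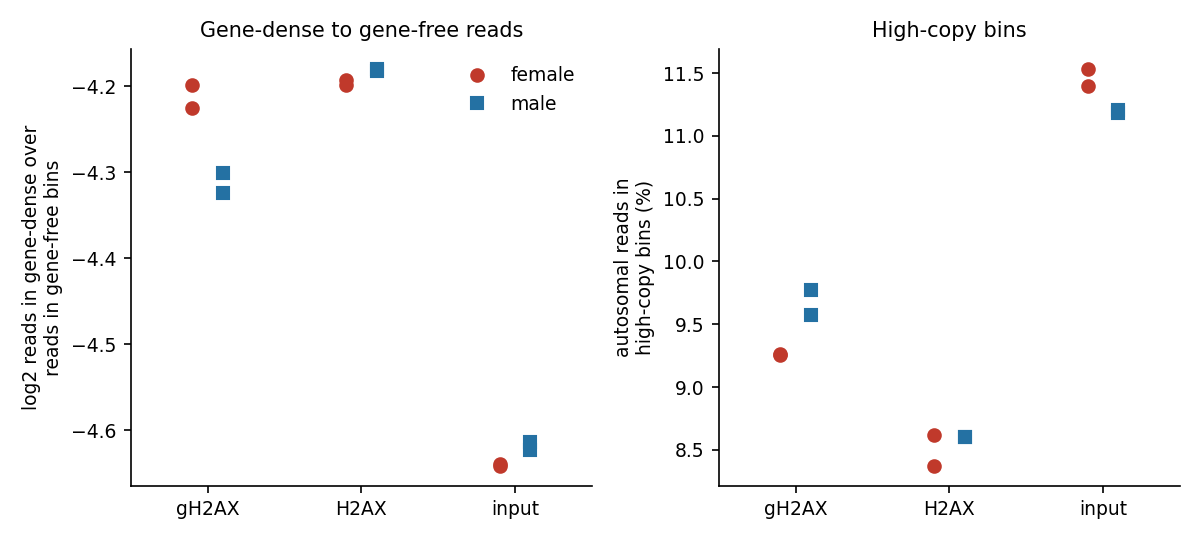
Values per WT library for gH2AX, H2AX and input, red circles for female and blue squares for male: on the left the log2 ratio of reads in gene-dense to reads in gene-free bins, on the right the percentage of autosomal reads in 46 high-copy bins. Male gH2AX libraries lie lowest of the ChIP libraries on the left (-4.30 and -4.32), and on the right the gH2AX libraries (9.26% to 9.77%) lie between H2AX and input.

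Whole chromosomes differed little. The median ratio was lowest on chromosome 7 (-0.06) and chromosomes 11 (-0.04) and 17 (-0.04), and highest on chromosomes 3 (0.04) and 16 (0.04). Bins in the last 3 Mb of chromosomes had a median of -0.05 (570 bins), those in the first 5 Mb of sequence -0.01 (949 bins) and those between 0.00 (22513 bins). After the trend on H2AX was removed, chromosome 7 stood at -0.02, chromosome 3 at 0.01, and chromosomes 11 (0.00) and 16 (-0.01) had changed sign.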

How the data were processed

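H2AX, gH2AX and input DNA of irradiated MEFs were profiled by ChIP-seq. The deposited table held raw read counts per 100 kb bin for 27268 bins, per the file header; the submitters' processing notes name mm10, Bowtie2 (2.2.9) and deepTools (2.4.2), among other tools, with no role given. Another 24 columns match no labelled sample and were not used. Samples were grouped by antibody, sex and genotype from their titles.

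edgeR 4.0.16 (R 4.3.3) was run on the autosomal counts (filterByExpr, library size the autosomal total, a mean per group, two-sided quasi-likelihood F test, Benjamini-Hochberg adjustment over all bins). The 8 WT ChIP libraries gave the ratio, with a threshold test for 1.1-fold. The KO comparison used 16 libraries. SE is the log2 ratio divided by the root of F. Per-library values were compared by exact permutation (scipy 1.17.1).

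The tests across bins were first tried on simulated counts. Alternatives were TMM scaling, no filter, DESeq2 1.42.0, a replicate block, each library left out, bins of usual input only, and removal of each library's lowess trend on KO H2AX over input.

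Bins named are the 10 highest and 10 lowest called bins whose libraries do not overlap, the same among bins of input 0.67 to 1.5 times the median, the 5 and 5 called bins of the sex and KO differences, the 8 longest stretches a direction, and up to 2 and 2 called bins a gene list. Other list members were named after their values were seen. Some list members that the rule names are not reported here. The members and lists were chosen with earlier results of these data known. Gene positions are RefSeq (GRCm38.p6).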

Additional observations from a re-analysis of the deposited data

Results flagged for a closer look

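The gH2AX to H2AX ratio differed between WT females and WT males in 2868 bins by the test of the difference itself, and 10 of these are singled out. The female ratio was the higher by 0.60 (log2) in the bin of Zc3h7a, 0.59 in that of Cmss1, 0.57 in chr3:5800001-5900000, 0.55 in that of Cdk8 and 0.53 in chr11:109000001-109100000. It was the lower in the bins of Dlg2 and Sytl2 (-0.60), chr14:45800001-45900000 (-0.55), Srgap1 (-0.50), Hsd17b11 and Sparcl1 (-0.37) and Dcc (-0.35). Groups held 2 libraries each, too few to test a single library as an outlier.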

How the results depend on the processing

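The counts of called bins for the sexes averaged, for each sex and beyond 1.1-fold stayed within 1.5 times of their values under TMM scaling, without the low-count filter and without any 1 library (14184 to 14859, 10635 to 12696, 10298 to 13398 and 3165 to 3476). The same held for the sexes averaged and each sex under DESeq2, the replicate block and bins of usual input alone. Removal of the trend on H2AX left 12441 bins for the sexes averaged, 8557 of them shared with the 15504. It left 11860 for females, but 4368 for males and 1545 for the sex difference. The sex difference was called in 1310 bins by DESeq2 and in 865 to 2798 without 1 library, and KO minus WT in 73 bins with TMM, 117 with the replicate block and 3 to 467 without 1 library. The cause was not tested.

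The gene-dense to gene-free difference ranged from -0.0948 to -0.0531 without 1 library, with an exact permutation p of 0.0286 to 0.143, and was -0.0513 (exact permutation p = 0.143) in bins of usual input. The high-copy difference ranged from 0.132 to 0.158 without 1 library, each with an exact permutation p of 0.0286. With the replicate block (an exact sign-flip permutation whose smallest p is 0.125) the values of -0.0737 and 0.147 gave p = 0.125. Of the called named bins, 7 changed sign after the trend was removed: Lmbrd1 (-0.36), Zmat3 (0.000523), Zfp36 (0.0147), Klf2 (0.0752), Vwf (0.0233), Eef2 (0.0136) and Sirt7 (0.0658). Of 49 medians, 23 changed sign under it, 4 in bins of usual input and 1 with DESeq2. The GC corrections were not run, as no genome of the build was at hand. The replicate block moved no other count by over 1.5 times, and replicate numbers did not pair the samples (correlation of deviations -0.0038 in females and 0.014 in males). A median SE of 0.026 limits what a single bin can show.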
